A study of Drosophila melanogaster with 8 samples.

Results

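The 5 genes described here act in fuel choice (Pdk and Ald1), nutrient sensing (Wdr24 and chrb) and redox defence (Sod1). They were found on the array by the target name of each probe, which gave 7 of its 32162 probes, and they are 5 of the 352 genes that could be given a symbol. Pdk, Ald1, Wdr24 and Sod1 have 1 named probe each, and chrb has 3 probes for the cDNA clone GH09771. The genes were selected on their differences between the groups of this study, so those differences are given as a description, with no test.

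RNA came from heads of adult Drosophila melanogaster, 20 heads of both sexes to a pool, and each pool was hybridised to its own array. The 4 activated_31C pools were warmed to 31 °C for 1 h and dissected at once, and the 4 control_23C pools stayed at 23 °C. All 8 pools had the genotype w, elav-GAL4/+; UAS-dTrpA1/+, in which a neuronal driver expresses a cation channel that warmth opens. The effects of warmth and of induced neural activity therefore cannot be told apart, and neither can slide and group, since the groups lay on separate slides. In whole heads, fewer cells of a type and less RNA per cell cannot be told apart either.

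Pyruvate dehydrogenase kinase phosphorylates and inhibits the pyruvate dehydrogenase complex, and so limits how much pyruvate from glycolysis enters the citric acid cycle. The kinase complex TORC1 promotes growth when amino acids are plentiful. The GATOR complexes relay amino acid supply to it, and the stress protein charybde restrains it. Cytosolic superoxide dismutase converts superoxide, a by-product of respiration, into hydrogen peroxide. Neurons draw heavily on both glycolysis and respiration to fuel their firing.

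Between 22005 and 24406 probes were well above background on an array, with no clear split between the groups. Saturated spots did split by group, with 5 to 15 on a control_23C array and 0 on each activated_31C array. No spot of the 5 genes was saturated. Control_23C replicates 3 and 4 and activated_31C replicate 3 stood apart, with 269, 158 and 42 probes that read over 4 log2 units below the probe's median of the 8 arrays, against 0 to 23 on the other arrays. The 7 probes were not among them, since the farthest from its group mean was Wdr24 on control_23C replicate 1, at −0.24. Of the marker genes for tissues of the head, only the potassium channel genes Sh and slo could be read, 2 of 13 neuronal markers, and both were well above background on all 8 arrays. Sh differed by −0.16 between activated_31C and control_23C (SE 0.0523, limma adjusted p = 0.0384, lost in 11 of 21 alternatives) and slo by −0.0993 (adjusted p = 0.207). No probe could be named for elav, TrpA1 or any of the 6 markers listed for glia and 8 each for photoreceptors, fat body and muscle. With no marker of another tissue to set beside Sh and slo, the labelled tissue could not be checked.

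Pdk had the largest difference of the 5 genes. Its log2 level, scaled to the 75th percentile of each array, was 4.04, 4.35, 4.20 and 4.11 in activated_31C replicates 1 to 4, against 2.67, 2.77, 2.80 and 2.69 in control_23C. The lowest activated_31C array lay 1.25 above the highest control_23C array. The means were 4.18 ± 0.13 in activated_31C and 2.73 ± 0.06 in control_23C (SD, n = 4 each), a log2 difference of 1.44 (SE 0.0730), or 2.72-fold. Of the 22443 probes tested, 759 were higher in activated_31C by at least as much, this one included. Before scaling, the Pdk spot read 79190 to 97175 intensity units in activated_31C and 31855 to 36916 in control_23C, and the groups did not overlap there either, with an unscaled log2 difference of 1.35. In the Release 6 gene table Pdk lies between prel and ced-6 and overlaps no other gene.

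Ald1 encodes aldolase, the enzyme of glycolysis that splits fructose bisphosphate into triose phosphates. Its log2 level was −0.55, −0.24, −0.41 and −0.37 in activated_31C, against −0.96, −1.04, −1.16 and −1.14 in control_23C. The groups did not overlap, and the nearest arrays of the 2 groups were 0.41 apart. The means were −0.39 ± 0.13 in activated_31C and −1.08 ± 0.09 in control_23C (SD, n = 4 each), a difference of 0.68 (SE 0.0770), or 1.60-fold. Ald1 overlaps asRNA:CR44321 in the gene table, which gives no strand, so the signal is uncertain as to its gene. The probe is named for the clone LP07735, and the table lists 10 transcripts of Ald1, so levels of the transcripts it does not read are not analysed here.

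**Figure D1:**
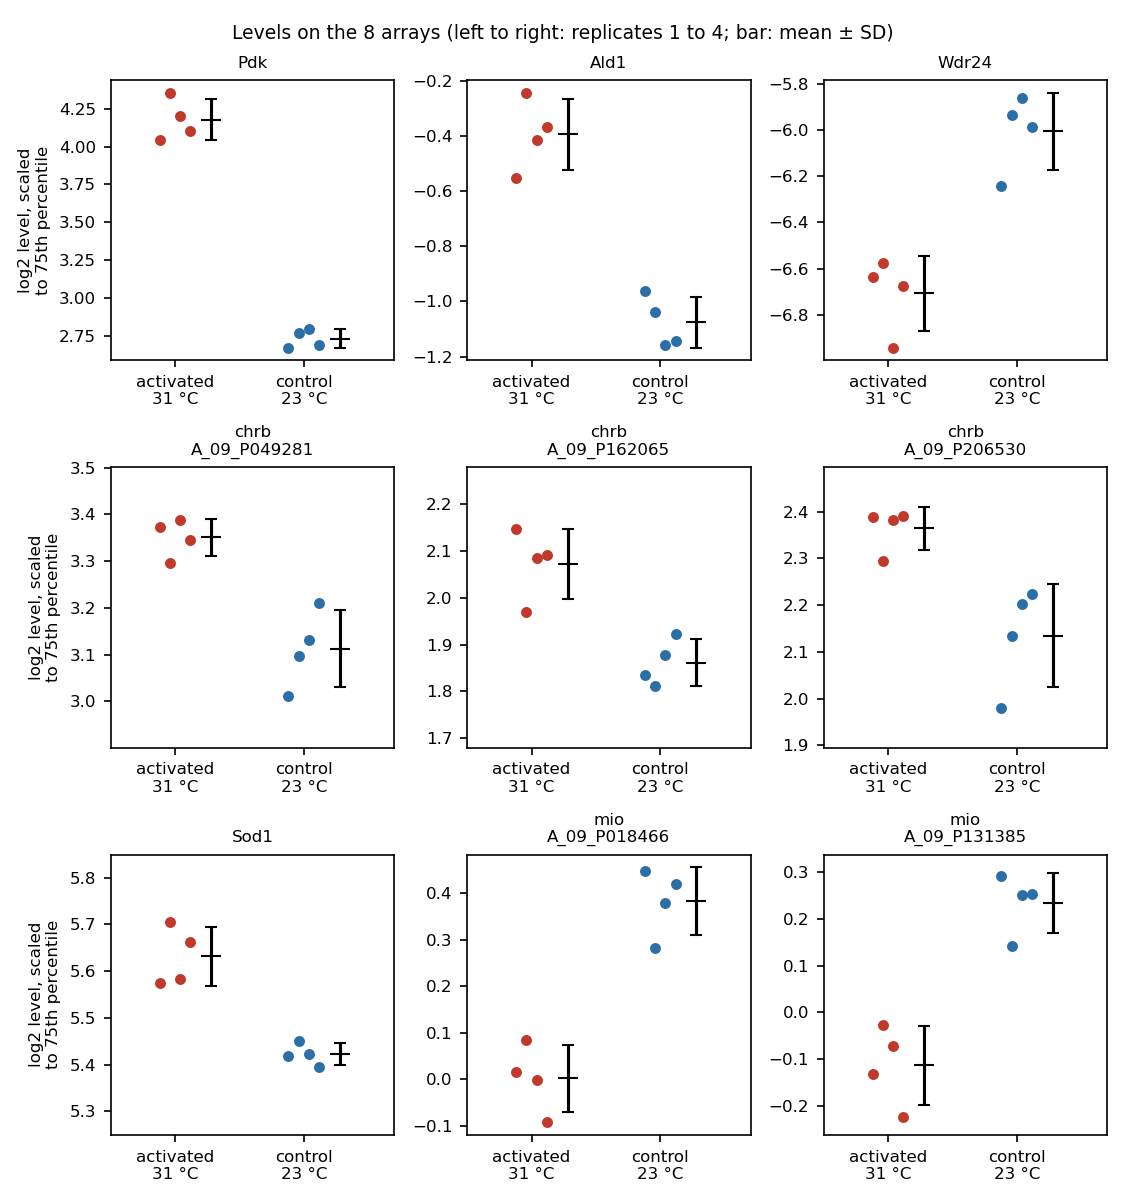
Scaled log2 level (vertical axes, each with its own range and none starting at 0) on the 4 activated_31C arrays (red, left) and the 4 control_23C arrays (blue, right) of the 7 probes of the 5 genes and of both probes of mio, with mean ± SD beside the points. The groups do not overlap in the 9 panels, nor for 42.9% of all probes tested, and 7 of the panels show genes selected on this difference. Wdr24 and mio are lower and the others higher in activated_31C.

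Wdr24 encodes a subunit of GATOR2, the complex that keeps TORC1 active by counteracting its inhibitor GATOR1. It was the 1 gene of the 5 that was lower in activated_31C. Its log2 level was −6.64, −6.58, −6.94 and −6.68 in activated_31C, against −6.24, −5.93, −5.86 and −5.99 in control_23C. Control_23C replicate 1 and activated_31C replicate 3 were the low arrays of their groups, and the groups were still 0.33 apart. The means were −6.71 ± 0.16 in activated_31C and −6.01 ± 0.17 in control_23C (SD, n = 4 each), a difference of −0.70 (SE 0.108), or 1.63-fold lower.

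This probe was dim. Its processed signal was 50.8, 49.8, 41.8 and 45.0 intensity units in activated_31C, each with a software error estimate of 7.83 to 10.5, against 70.4, 85.6, 91.4 and 77.7 in control_23C, with 9.14 to 14.3. It was well above background on 3 of 4 activated_31C arrays, with replicate 3 below that mark, and on 4 of 4 control_23C arrays. The local background read 128 to 139 in activated_31C and 127.5 to 130.5 in control_23C, and the spot's median signal exceeded it by 73.5 to 86 in activated_31C and by 101.5 to 131 in control_23C. The probe passed the filter on dim probes through control_23C only, the group in which it is higher. With normexp on the median signal and an offset of 50, the log2 difference of Wdr24 was smaller, at −0.43, and its SE was larger, at 0.209. Which step of that correction moved the value was not tested.

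Of 45 genes listed for nutrient sensing by TORC1, GATOR, AMPK and insulin, 3 had a named probe: Wdr24, chrb and mio. The gene mio encodes another GATOR2 subunit, and both of its probes read the transcript FBtr0077835. The brighter probe of mio had a log2 level of 0.02, 0.08, −0.00158 and −0.0929 in activated_31C, against 0.45, 0.28, 0.38 and 0.42 in control_23C. It fell, with means of 0.00141 ± 0.07 in activated_31C and 0.38 ± 0.07 in control_23C (SD, n = 4 each), a difference of −0.38 (SE 0.0558, limma adjusted p = 0.00105). The other mio probe differed by −0.35 (SE 0.0571, adjusted p = 0.00189). Both probes were lower on each activated_31C array than on any control_23C array. Over all 22443 probes tested, 43.4% passed this threshold of 0.05, 24.3% lower and 19.1% higher in activated_31C, and 1 gene that passed can be read only against that share. Both calls on mio were lost with the 3 arrays that stood apart left out, where the differences were −0.36 and −0.34, about as large but from fewer arrays.

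The gene chrb (charybde) encodes a protein related to mammalian REDD1, an inhibitor of TORC1 under stress. The brightest of its probes, A_09_P049281, had a log2 level of 3.37, 3.30, 3.39 and 3.35 in activated_31C, against 3.01, 3.10, 3.13 and 3.21 in control_23C. Probe A_09_P162065 read 2.15, 1.97, 2.08 and 2.09 in activated_31C, against 1.84, 1.81, 1.88 and 1.92 in control_23C. Probe A_09_P206530 read 2.39, 2.29, 2.38 and 2.39 in activated_31C, against 1.98, 2.13, 2.20 and 2.22 in control_23C. On all 3 probes the groups did not overlap, but the nearest arrays were only 0.0464 to 0.0873 apart.

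The log2 difference of chrb was 0.24 (SE 0.0516), 0.21 (SE 0.0510) and 0.23 (SE 0.0621) on these 3 probes in the same order, or 1.16- to 1.18-fold. The probes share a target, so they repeat 1 measurement and are not 3 separate results. The mean of the 3 probes was 2.60 ± 0.05 in activated_31C and 2.37 ± 0.08 in control_23C (SD, n = 4 each), a difference of 0.23. After quantile normalization the differences were 0.0634 (SE 0.0608), 0.10 (SE 0.0536) and 0.12 (SE 0.0676). After centring on spike-in controls they were 0.16 (SE 0.0952), 0.14 (SE 0.0930) and 0.15 (SE 0.0999). The size of the chrb difference thus rests on how the arrays are scaled.

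Sod1 encodes the cytosolic copper-zinc superoxide dismutase. Its log2 level was 5.57, 5.70, 5.58 and 5.66 in activated_31C, against 5.42, 5.45, 5.42 and 5.39 in control_23C. The groups did not overlap and were 0.12 apart. The means were 5.63 ± 0.06 in activated_31C and 5.42 ± 0.02 in control_23C (SD, n = 4 each), a difference of 0.21 (SE 0.0436), or 1.16-fold. The probe is spotted at 2 places on each array, and the paired spots differed by 0.00778 to 0.0413 on the log2 scale, which is a technical spread within an array and not one between pools. On activated_31C replicate 1, 1 of the 2 spots had an outlier flag and was left out of the level. The probe was not saturated on any array. After quantile normalization the difference of Sod1 was −0.0382 (SE 0.0418), and after spike-in centring it was 0.13 (SE 0.0697), so its direction rests on how the arrays are scaled.

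**Figure D2:**
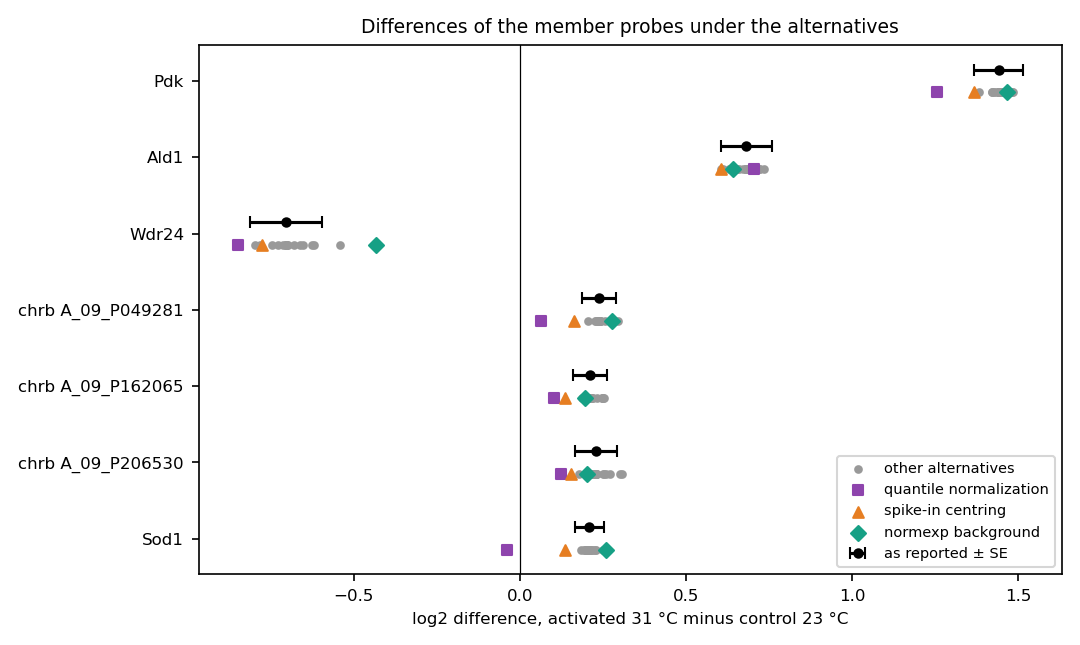
Log2 difference, activated_31C minus control_23C, of the 7 probes (black, ± SE) with the values under the alternative settings below each. Pdk, Ald1 and Wdr24 keep their sign under all alternatives that gave a value, most of which keep the levels and so could not turn it. The chrb probes move towards 0 after quantile normalization (purple squares) and Sod1 crosses 0 there.

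The scaling and the brightness of the probes were set beside these differences. The log2 75th percentile itself averaged 12.25 in activated_31C and 12.34 in control_23C, and without any scaling the difference was 0.12 for Sod1 and 0.12 to 0.15 for the chrb probes, against 1.35 for Pdk, 0.59 for Ald1 and −0.79 for Wdr24. Ranked by mean level in 10 equal parts, the probes tested had a median difference of 0.11 in the brightest part, which holds Pdk, Sod1 and the brightest chrb probe. The median was 0.0251 in the ninth part, which holds the other chrb probes, as it was in the dimmest part, which holds Wdr24. It was −0.0790 in the sixth part, which holds Ald1, and −0.0101 over all probes. Without scaling the groups overlapped for chrb probes A_09_P162065 (18600 to 22398 intensity units in activated_31C, against 18346 to 19504 in control_23C) and A_09_P206530 (23294 to 26800 units in activated_31C, against 21046 to 24410 in control_23C), but not for the other 5 probes. After quantile normalization the median difference was −0.0896 in the brightest part and −0.0693 in the ninth. There Sod1 differed by −0.0382 and the chrb probes by 0.0634 to 0.12. The part of brightness in the differences of Sod1 and chrb was not tested.

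Read against the whole array, the ranges of the groups did not overlap for 7 of 7 probes, while this was so for 42.9% of all probes tested. The choice of the genes fixes that count, so nothing is read from it. The median absolute log2 difference was 0.24 over the 7 probes and 0.22 over all probes tested. At least as large a difference in either direction was found for 3.63% of all probes in the case of Pdk, 12.8% for Ald1 and 12.2% for Wdr24. For the chrb probes that share was 47.3% to 51.7%, and for Sod1 it was 52.0%. By absolute size, chrb and Sod1 thus lay near the middle of the array's differences. By signed difference, 5240 to 5698 of the 22443 probes were at least as high as the chrb probes and Sod1, against 759 for Pdk. The genes were selected on these differences, so the shares are a description only. Wdr24 also entered the ranking through control_23C only, the group in which it is higher.

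**Figure D3:**
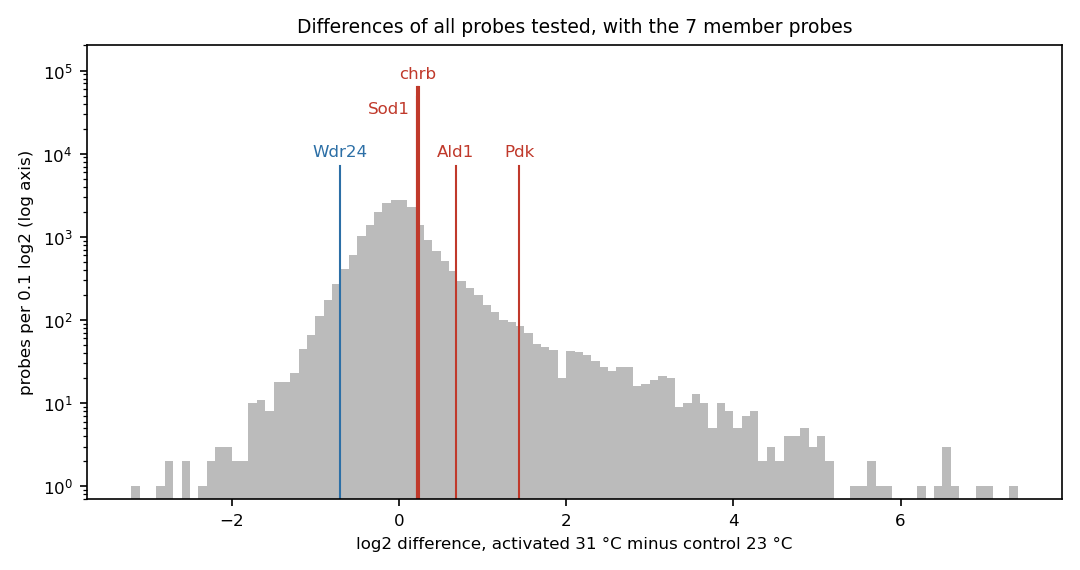
Number of probes (vertical log axis) by log2 difference, activated_31C minus control_23C, in steps of 0.1 for the 22443 probes tested, with lines at the 7 probes. Wdr24 lies at −0.70, chrb and Sod1 together between 0.21 and 0.24, Ald1 at 0.68 and Pdk at 1.44.

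The spread between arrays of 1 group differed among the 5 genes. The choice of genes is not independent of it, since groups with a small difference stay apart only where the spread is small. The residual SD of Sod1 was 0.0475 log2 units, and 5.97% of probes had a smaller one. It was 0.0634 to 0.0849 for the chrb probes, 0.10 for Pdk, 0.11 for Ald1 and 0.16 for the dim probe of Wdr24, against a median of 0.11 over all probes. The small differences of Sod1 and chrb thus came with a small spread, and that of Wdr24 with a larger one, but nothing is read from this. The Sod1 level also averaged repeated spots where none was flagged, and the part of this in its spread was not tested.

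Within the groups, deviations from the group mean correlated at r = 0.77 between Ald1 and Sod1, 0.67 between Pdk and Sod1 and 0.54 between Pdk and Ald1 over the 8 arrays. Against the chrb probes those of Ald1 correlated at −0.89 to −0.75, and Wdr24 had r of −0.22 to 0.45 with the other probes. These values are a description over arrays that share slides and scaling. Activated_31C replicate 2 was the highest array of its group for Pdk, Ald1, Wdr24 and Sod1, by 0.18, 0.15, 0.13 and 0.0732 above the group mean, and the lowest for all 3 chrb probes, by −0.0538, −0.10 and −0.0701. Activated_31C replicate 1 was the lowest array for Pdk (−0.13), Ald1 (−0.16) and Sod1 (−0.0572) and above the mean for Wdr24 and the chrb probes. In control_23C, replicate 1 was the highest for Ald1 (0.11) and the lowest for Pdk (−0.0597), Wdr24 (−0.24) and chrb probes A_09_P049281 and A_09_P206530 (−0.10 and −0.16). The remaining chrb probe, A_09_P162065, was lowest in control_23C on replicate 2, at −0.0511.

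**Figure D4:**
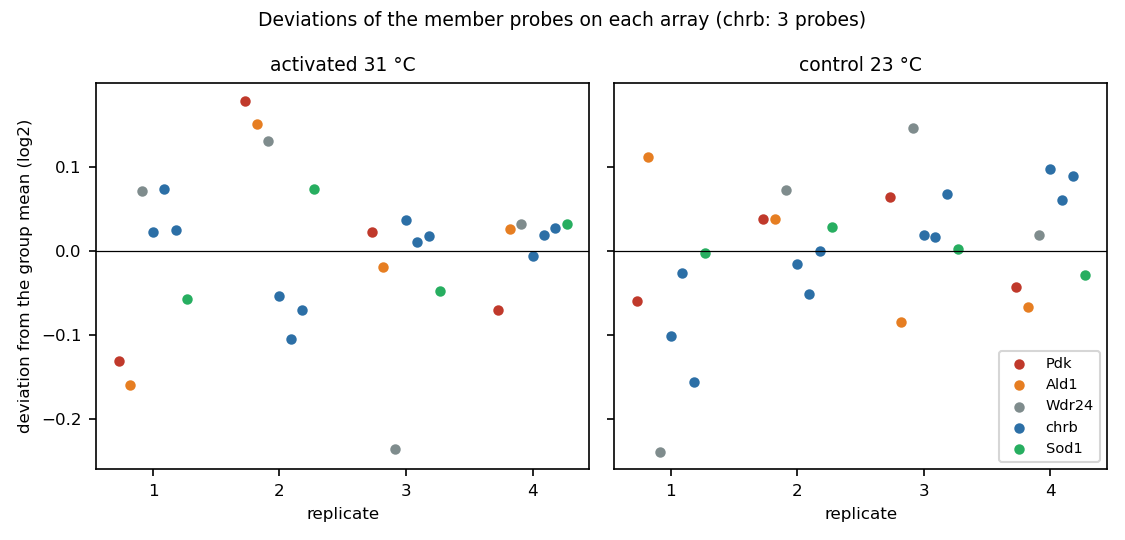
Deviation of each probe from its group mean (log2, vertical axis) on replicates 1 to 4 of activated_31C (left) and control_23C (right), with 1 colour per gene and 3 points for chrb. On activated_31C replicate 2, Pdk, Ald1, Wdr24 and Sod1 lie above 0 and the chrb probes below it.

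Likeness was measured as Pearson's r between these deviations over the 8 arrays, for all other probes that had a gene symbol. For Pdk the most alike genes were pros, which encodes a transcription factor (r = 0.98), CG1024 (0.96) and the heat-inducible nuclear RNA lncRNA:Hsromega (0.88). For Ald1 they were CG11563 (0.94), hpRNA:CR33940 (0.94) and Polr2F, a subunit of RNA polymerases (0.93), and the least alike was a chrb probe (−0.89). For Wdr24 they were fend (0.79), spel1 (0.78) and Acp95EF (0.78). For chrb they were CG31140 (0.96), CR14033 (0.91) and how, which encodes an RNA-binding protein (0.91), and the least alike was hpRNA:CR33940 (−0.91). For Sod1 they were another probe of lncRNA:Hsromega (0.95), the ribosomal protein gene RpL29 (0.94) and vsg (0.89). Each gene was ranked by its most alike probe, and the probes of lncRNA:Hsromega did not all vary alike. Its probe A_09_P180885 was lowest in activated_31C on replicate 4 (level 5.92), where Sod1 lay above its group mean (by 0.0317). The least alike genes were Mst36Fa for Pdk (−0.92), spen for Wdr24 (−0.90) and pcm for Sod1 (−0.86). All these are the highest and lowest of 308 to 310 correlations over 8 arrays each, on shared slides. Of the 18 genes that this ranking named, 8 overlap another gene in the table, so the values are a description only.

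The other genes of these pathways could be read in small part, since few probes could be named. Of 40 genes listed for glycolysis, pyruvate, glycogen and trehalose, only Pdk and Ald1 had a named probe that was tested, so neither the pyruvate dehydrogenase subunits nor lactate dehydrogenase are analysed here. Of 44 redox genes, Sod1 and SelR were tested. SelR, which encodes a methionine sulfoxide reductase, differed by −0.0800 (SE 0.0653, adjusted p = 0.360), with levels of 0.00535 to 0.18 in activated_31C that overlapped those of 0.06 to 0.29 in control_23C.

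Heat-inducible genes were also higher in these warmed heads. Of 19 listed, 3 had a named probe, and all 3 rose, as 19.1% of all probes did. CG7130, a gene for a co-chaperone of the DnaJ type, differed by 3.42 (SE 0.0932), and lncRNA:alphagamma-element:CR32865 by 4.16 (SE 0.0851), with limma adjusted p-values of 4.58e-07 and 2.66e-07. The 4 probes of lncRNA:Hsromega differed by 0.77 to 1.24. The difference of Pdk was larger than these 4, and those of Ald1, chrb and Sod1 were smaller. The part of warmth in the differences of the 5 genes was not tested.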

How the data were processed

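Spot intensity values were deposited for 8 arrays, which the authors made in Agilent Feature Extraction. Its version is 10.7.3.1 per the file headers and 9.1.3.1 per the submitters' processing notes, and it subtracted background and detrended the signal. The authors' deposited value table is log2. Against the scanner values it correlated at 0.982 to 0.989 per array after scaling and median centring of each probe. How it was made is not given in the sources used.

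Control spots and 1108 spots with an outlier flag were left out, spots of a probe were averaged as log2 processed signal, and each array's 75th percentile (4601 to 5340 units) was subtracted. A probe was tested if it was measured on at least 6 arrays and at least 1 group had it well above background on each of its 4 arrays (22443 probes), by limma 3.58.1 in R 4.3.3 with group as the only term, Benjamini-Hochberg adjustment over all of them and a threshold of 0.05. SE is limma's moderated standard error of activated_31C minus control_23C. The labels call the 4 pools of a group independent. The number of arrays limits the precision.

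Symbols came from a RefSeq gene table (Release 6 plus ISO1 MT) by accession, clone or transcript name. It named 416 probes with 1 gene, 2 with several and 31744 with none, so other probes of these genes can lie among the unnamed ones. The array's design build is another, so no coordinates are given. The normexp alternative used the median signal, as the files give no mean signal. The 5 genes and the lists were chosen with earlier results of these data known. All probes of the 5 genes and each measured listed gene are named, and for likeness the 3 most and the 1 least alike genes. The fit was run on simulated data with known changes. Those values were drawn independently for each array, so the run does not give the error rate for arrays whose deviations correlate.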

Additional observations from a re-analysis of the deposited data

Results flagged for a closer look

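Of 14 groups of 4 arrays (7 probes in 2 groups), 1 had a single array far from the others for its gap over the group's range, against 0.7 that chance gives at 1 in 20. For the chrb probe A_09_P206530 in activated_31C, replicate 2 was lowest at 2.29, with a ratio of 0.904, while the other 3 arrays read 2.38 to 2.39. The same array was lowest for the other chrb probes. Without it the difference of this probe was 0.25.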

How the results depend on the processing

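Of the 5 genes, Pdk (1.25 to 1.48), Ald1 (0.61 to 0.73), Wdr24 (−0.85 to −0.43) and chrb (0.0634 to 0.31 over its probes) kept their sign under the 20 or 21 alternatives that gave a value. Sod1 (−0.0382 to 0.26) turned after quantile normalization. Most of these alternatives could not turn a sign, since they kept the same levels and the groups did not overlap on any of the 7 probes. Only another scaling, another background correction or the deposited values could do so. Leaving out 1 array at a time gave 1.38 to 1.48 for Pdk, 0.63 to 0.73 for Ald1, −0.78 to −0.62 for Wdr24, 0.18 to 0.27 for chrb and 0.19 to 0.23 for Sod1. Without control_23C replicates 3 and 4 and activated_31C replicate 3 the differences were 1.44 for Pdk, 0.61 for Ald1, −0.54 for Wdr24, 0.25 to 0.30 for chrb and 0.21 for Sod1. The filter for probes well above background on all arrays removed Wdr24.

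Over all probes, 4290 were higher and 5451 lower, so 44.0% of the changed ones were higher, against 34.1% after quantile normalization or spike-in centring and 52.3% after median centring. Spike-in centring left 2554 higher. Without those 3 arrays 2715 were higher and 2733 lower, or 24.4% of probes, and with no filter 27.9% passed. Leaving out 1 array gave 3663 to 4025 higher and 4550 to 5364 lower, or 37.6% to 41.8%. The cause was not tested. With a replicate block, 3894 were higher and 4897 lower. Apart from that block, the shared numbers were not used to pair the arrays. Deviations of same-numbered arrays correlated at 0.20, 0.0892, 0.65 and −0.28 for numbers 1 to 4. Those of differently numbered arrays of the 2 groups correlated at −0.64 to 0.47. Whether the numbers mark pairs was not tested.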
